A study of Mus musculus with 12 samples.

Results

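The genes described here are those whose mRNA was lower after stimulation of EL-4 T cells both with and without cycloheximide (CHX), a drug that blocks protein synthesis. Members were chosen from the group means of log2 expression values. A probe set, the group of array probes that reports 1 transcript, entered when it paired with exactly 1 gene symbol and its mean was lower by 0.8 or more after stimulation in CHX-treated cells and also in DMSO-treated cells. Of 21789 probe sets with 1 symbol, 3.36% were that much lower in CHX, 2.53% in DMSO, and 170 in both (0.78%). A set of 10 was then left out by name (Il7r, Bhlhe41, Adamts1 and symbols of the Zfp, Slc2a, Gm and Rik kind), which left 160 probe sets of 153 genes, out of 19938 genes in all. Because both stimulation effects chose the members, those effects are given as descriptions with no test.

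EL-4 is a mouse T lymphoma line, and mRNA was measured on Affymetrix Mouse Gene 1.0ST arrays. Pretreatment lasted 30 min and used 10 µg/ml CHX dissolved in DMSO, or DMSO alone, after which the cells received phorbol 12-myristate 13-acetate (PMA, 10 ng/ml) with ionomycin (1 µM), together called P/I, for 4 h or for 0 h. This gave 4 groups of 3 arrays: CHX with P/I, CHX unstimulated, DMSO with P/I and DMSO unstimulated. All arrays come from 1 lymphoma line in culture, and every group was exposed to DMSO. The methods call the replicates biological without saying what was repeated, so p-values measure the spread between repeats within this line. Read literally, the P/I arrays of CHX-treated cells were also 4 h longer in CHX than their unstimulated partners. Those of DMSO-treated cells were likewise 4 h longer in DMSO and in culture. P/I and the longer exposure therefore cannot be told apart in either pair. In bulk RNA, fewer cells carrying a transcript and less of it per cell cannot be told apart either.

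PMA activates protein kinase C and the Ras pathway, and ionomycin lets calcium into the cell, so the pair stands in for signals downstream of the T cell receptor. Activated T cells switch on new transcripts and also lose others, because transcription stops, because the mRNA is degraded faster, or both. A decrease that depends on a newly made repressor protein should not occur in full while CHX blocks translation, which is why a stimulation is often repeated in CHX. CHX by itself can also stabilise short-lived mRNAs.

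The arrays carried a T cell profile. All 9 T cell markers measured were above log2 7 in unstimulated DMSO-treated cells (median 10.7), whereas medians were 5.08 for 9 B cell markers and 4.94 for 10 myeloid markers. The T cell medians were 10.8 with P/I and 10.7 without it in CHX, and 10.5 and 10.7 in DMSO. Arrays of 1 group correlated at 0.983 to 0.994 over the 35399 probe sets of the table, and the lowest values, 0.983 and 0.987, belonged to replicate 1 of the DMSO P/I group.

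Among the members were 7 genes grouped here under oxygen sensing and glucose use. The promoters of 4, Egln3, Egln1, Hk2 and Ak4, are shown because these genes share the group and were lower together after P/I. Ak4 is an adenylate kinase that was placed in the group. These 4 genes were picked after their values were seen. Each window holds 250 bases before and 50 bases after a RefSeq transcription start (mouse build GRCm38.p6), written in the gene's direction, with every ACGTG, the core of the hypoxia response element, in capitals on either strand (CACGT is its reverse complement). The windows lie at chr12:54203825-54204124 on the minus strand (Egln3) and chr8:124949205-124949504 on the minus strand (Egln1). The others lie at chr6:82774405-82774704 on the minus strand (Hk2) and chr4:101419453-101419752 on the plus strand (Ak4). Of the 4 windows of Ak4, only this 1 held a match. Egln3 and Egln1 each held 1 match, and Hk2 held 2. In Ak4 the match lay within CACGTG, the E-box, which reads the same on both strands.
Egln3: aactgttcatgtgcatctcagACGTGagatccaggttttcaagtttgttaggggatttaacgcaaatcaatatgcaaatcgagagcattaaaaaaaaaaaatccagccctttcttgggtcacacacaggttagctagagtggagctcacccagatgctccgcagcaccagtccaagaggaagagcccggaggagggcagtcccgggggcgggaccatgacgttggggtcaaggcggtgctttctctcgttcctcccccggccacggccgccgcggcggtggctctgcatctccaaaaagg
Egln1: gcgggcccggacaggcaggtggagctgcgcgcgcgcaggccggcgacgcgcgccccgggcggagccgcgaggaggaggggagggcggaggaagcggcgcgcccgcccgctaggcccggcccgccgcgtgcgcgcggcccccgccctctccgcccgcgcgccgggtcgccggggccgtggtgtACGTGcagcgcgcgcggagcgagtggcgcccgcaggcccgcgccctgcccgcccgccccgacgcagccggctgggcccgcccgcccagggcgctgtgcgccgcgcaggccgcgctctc
Hk2: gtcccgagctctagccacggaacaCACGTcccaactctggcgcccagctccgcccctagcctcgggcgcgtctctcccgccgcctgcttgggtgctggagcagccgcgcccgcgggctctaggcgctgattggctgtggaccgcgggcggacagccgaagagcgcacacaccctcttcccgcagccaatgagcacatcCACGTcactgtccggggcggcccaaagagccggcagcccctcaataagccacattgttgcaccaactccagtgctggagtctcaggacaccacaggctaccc
Ak4: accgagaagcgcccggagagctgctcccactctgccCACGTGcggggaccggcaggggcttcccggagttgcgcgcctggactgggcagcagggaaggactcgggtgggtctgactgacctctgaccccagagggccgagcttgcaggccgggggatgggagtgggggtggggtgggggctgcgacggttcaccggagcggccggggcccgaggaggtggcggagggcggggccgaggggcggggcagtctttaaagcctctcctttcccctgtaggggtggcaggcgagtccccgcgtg

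A match is a description of letters and not a binding site. ACGTG was searched after the members were known, and it was present in the windows of 33 of 120 member genes with a RefSeq window (27.5%), against 24.4% of 15563 genes with 1 symbol and 32.0% of 5897 genes with a mean of log2 7 or more. Of the oxygen and glucose genes not printed, Pgm2l1 and Pdp2 held it and Pgp did not. Adm, another member, had none in its window. By gene, the share in the members thus lay between those of all genes and of the expressed genes. A gene counted when any of its windows held a match, and genes differ in their number of windows. By window the share in the members was below both, at 20.7% of 179 windows, against 21.6% of 19116 and 28.0% of 7490.

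Egln3, a prolyl hydroxylase that marks hypoxia-inducible factors for destruction when oxygen is present, had 9.22, 9.79 and 9.10 with P/I in CHX-treated cells, against 11.18, 11.38 and 11.38 in unstimulated CHX-treated cells. In DMSO-treated cells it had 9.87, 10.16 and 9.58 with P/I, against 11.11, 11.33 and 11.33 in unstimulated cells. All 6 P/I arrays lay below all 6 unstimulated arrays. Its relative Egln1 had 8.84, 9.12 and 8.59 with P/I in CHX, against 10.20, 10.46 and 10.45 unstimulated, and 8.93, 9.40 and 9.09 with P/I in DMSO, against 10.18, 10.46 and 10.52 unstimulated. Again no P/I array reached an unstimulated one. The third family member, Egln2, was not a member: its P/I effect was -0.12 in CHX (adjusted p = 0.627 from limma) and -0.44 in DMSO (adjusted p = 0.0309). So of the 3 prolyl hydroxylases, 2 were at least 2.38-fold lower after P/I in both settings.

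Hexokinase 2 (Hk2), which traps glucose in the cell, had 8.70, 9.41 and 8.71 with P/I in CHX, against 10.44, 10.64 and 10.87 unstimulated. In DMSO it had 9.96, 8.78 and 9.87 with P/I, against 10.31, 10.48 and 10.45 unstimulated. The groups did not overlap, but in DMSO replicates 1 and 3 were only a little below the unstimulated arrays, and the mean decrease rested largely on replicate 2. Hk1, another hexokinase, had P/I effects of -0.23 in CHX (adjusted p = 0.13 from limma) and -0.03 in DMSO (adjusted p = 0.894). Ak4, a mitochondrial adenylate kinase, was measured by 2 probe sets. One of them had 7.83, 7.86 and 7.55 with P/I in CHX, against 9.83, 9.52 and 9.68 unstimulated, and 7.88, 7.40 and 7.45 with P/I in DMSO, against 9.45, 9.25 and 9.39 unstimulated. The other had P/I effects of -1.13 in CHX and -1.25 in DMSO, so both probe sets were lower with P/I in every replicate. Pgm2l1, which makes glucose 1,6-bisphosphate, had effects of -1.31 in CHX and -1.39 in DMSO. Pdp2, the phosphatase that activates pyruvate dehydrogenase, had effects of -0.91 in CHX and -1.17 in DMSO. Pgp, which clears side products of glycolysis, had effects of -0.94 and -0.81. With a median of -1.42 in CHX and -1.25 in DMSO, the 8 probe sets of these 7 genes had the lowest median of the 11 role groups in CHX and the second lowest in DMSO. The role groups were drawn up after the members were known, and the P/I effects chose the members, so this rank is a description. The group of cytoskeletal genes had a close median in CHX, -1.38.

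Over all 160 probe sets the median P/I effect was -1.10 in CHX (interquartile range -1.38 to -0.93) and -1.08 in DMSO (-1.36 to -0.93), against 0.02 and -0.03 over the 23410 probe sets tested. The range ran down to -2.56 in CHX, for Arl11, and to -2.57 in DMSO, for Gcsam. At a Benjamini-Hochberg adjusted p under 0.1 from limma, 158 members were lower with P/I in CHX, where 11.6% of all tested probe sets were, and 158 in DMSO, where 8.42% were. The exceptions were Cep192 and Pik3ip1 in CHX and Rad54l and Rtn4rl1 in DMSO. The P/I arrays lay below the unstimulated arrays with no overlap for 158 members in CHX (17% of probe sets with 1 symbol) and 156 in DMSO (13%), the exceptions being Pik3ip1 and Idh1 in CHX and Rtn4rl1, Qser1, Rad54l and Fam111a in DMSO. These counts follow from the choice of members. A decrease of at least 2-fold in both settings was found for 73 probe sets, and of at least 4-fold in both for 2, Mc5r and Fam78a.

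**Figure D1:**
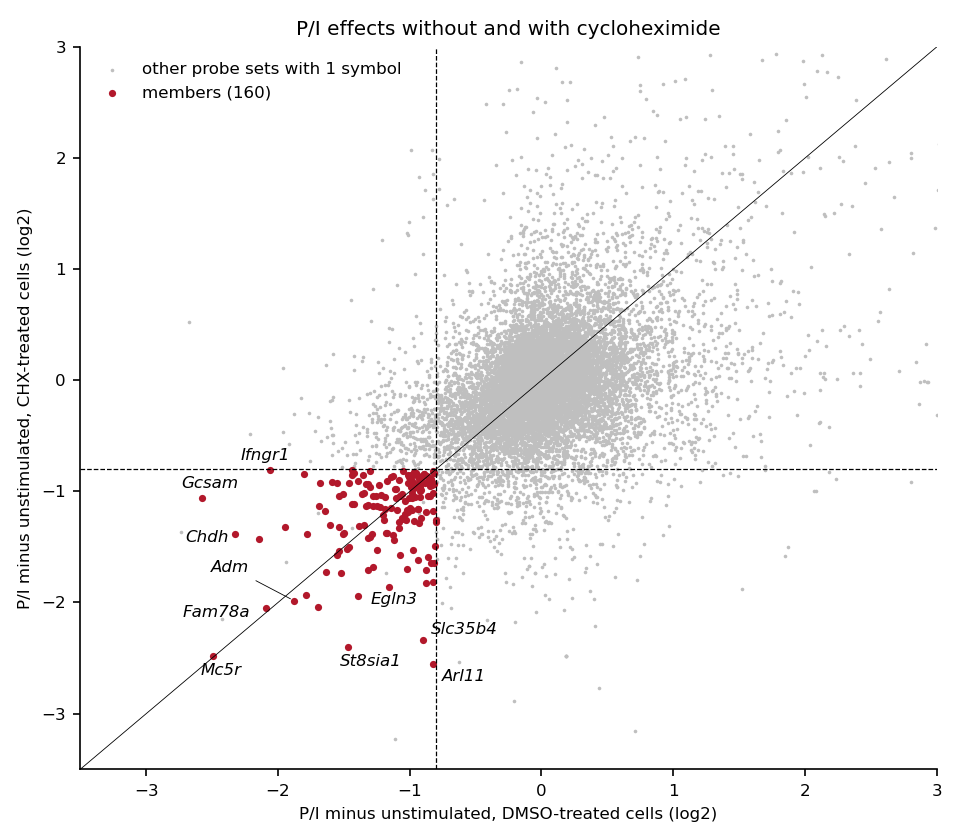
P/I effect (P/I minus unstimulated, log2) in CHX-treated cells on the vertical axis against DMSO-treated cells on the horizontal axis, 1 point per probe set with 1 symbol, members in red, dashed lines at -0.8 and a solid line of equal effects. Grey points in the lower left corner are the 10 probe sets left out by name, 84 probe sets fall outside the drawn range of -3.5 to 3, and the members spread to both sides of the line, with Mc5r and Fam78a on it and Gcsam and Arl11 far from it.

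The same measure in arrays that the choice did not use is a description of how far the decreases held. When the rule was applied to replicates 2 and 3 alone it chose 185 probe sets, and in the arrays of replicate 1 both P/I differences were below 0 for 181 of them (97.8%, against 28.9% of all probe sets with 1 symbol) and at -0.8 or lower for 86 (46.5%, against 0.62%). With replicate 2 held out the counts were 178 (98.9%, against 27.3%) and 98 (54.4%, against 0.661%) of 180, and with replicate 3 held out they were 115 (100%, against 28%) and 101 (87.8%, against 1.23%) of 115. The sign thus held for nearly every probe set chosen, whereas the size was smaller in replicate 1 (medians -1.0 in CHX and -0.85 in DMSO) and replicate 2 (-0.99 and -1.06) than in replicate 3 (-1.31 and -1.30). The spread between arrays of a group was widest in the DMSO P/I group, with a median SD of 0.26 over the members, against 0.16 to 0.20 in the other groups.

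Near the threshold the choice turned on small differences. Just inside lay Rad54l, a recombination repair factor (-1.25 in CHX, -0.80 in DMSO), Smo, the transducer of Hedgehog signals (-1.28, -0.80), the mitochondrial NAD kinase Nadk2 (-0.81, -1.44) and Ifngr1, the ligand-binding chain of the interferon gamma receptor (-0.81, -2.06). Just outside lay Dym (-0.799 in CHX, -0.964 in DMSO), Tmem64 (-1.36, -0.798), Nsd1, a histone methyltransferase (-0.849, -0.798), and E2f1, an activator of S phase genes (-0.842, -0.794).

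Receptors, ligands and surface proteins made up 20 genes. The melanocortin receptor Mc5r, which signals through cyclic AMP, had the deepest decrease in the mean of both settings. It had 6.17, 6.53 and 5.95 with P/I in CHX, against 8.50, 8.65 and 8.95 unstimulated, and 5.85, 6.45 and 6.11 with P/I in DMSO, against 8.35, 8.55 and 9.0 unstimulated, which is 5.6-fold lower in CHX and 5.63-fold lower in DMSO. The gap between the groups was the same with and without CHX within 0.01. Of the other melanocortin receptors, Mc1r had effects of -0.27 in CHX (adjusted p = 0.0923 from limma) and -0.37 in DMSO (adjusted p = 0.0281), and Mc2r, Mc3r and Mc4r were between 4.46 and 5.29 in every group. Adm, the precursor of the vasodilator peptide adrenomedullin, had 5.62, 6.37 and 5.70 with P/I in CHX, against 7.63, 8.18 and 7.82 unstimulated. In DMSO it had 4.96, 5.23 and 5.37 with P/I, against 6.90, 7.53 and 6.76 unstimulated. Its whole pattern sat higher in CHX, with almost the same decrease, 3.96-fold in CHX and 3.67-fold in DMSO.

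Ifngr1 had 10.09, 10.57 and 10.29 with P/I in CHX, against 10.83, 11.24 and 11.31 unstimulated, and 8.91, 8.62 and 9.04 with P/I in DMSO, against 10.71, 11.07 and 10.97 unstimulated. The decrease was 1.75-fold in CHX and 4.18-fold in DMSO, and the P/I arrays of the 2 settings did not overlap. Its partner chain Ifngr2 did not meet the rule (0.44 in CHX, adjusted p = 0.132; -0.28 in DMSO, adjusted p = 0.422, both from limma). Il10rb, a chain shared by receptors of the interleukin 10 family, had 7.26, 6.73 and 6.50 with P/I in CHX, against 8.0, 7.84 and 8.03 unstimulated, and 6.86, 6.05 and 6.02 with P/I in DMSO, against 8.10, 7.14 and 7.63 unstimulated. Il10ra was at 4.77 to 4.80 in every group. Of 21 measured cytokine receptor chains, 2 were higher and 6 lower with P/I in CHX, and 7 were higher and 3 lower in DMSO. Over all tested probe sets 10.2% were higher and 11.6% lower with P/I in CHX, and 9.05% were higher and 8.42% lower in DMSO. The lower counts include Ifngr1 and Il10rb, which were chosen for being lower, and those of the lists that follow likewise include their members. Trgv1, a variable segment of the T cell receptor gamma chain, had effects of -0.85 in CHX and -1.80 in DMSO, and Mr1, which presents vitamin B metabolites to a class of T cells, had effects of -0.92 and -1.68. Gpr65, a proton-sensing receptor, had effects of -1.13 in CHX and -1.69 in DMSO. The growth factor Fgf11, the adhesion molecule Pecam1, the leukotriene receptor Cysltr1, the cytokine Tgfb3 and the interleukin receptor chains Il17rb and Il9r had effects between -1.17 and -0.82 in CHX and between -1.59 and -0.82 in DMSO.

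**Figure D2:**
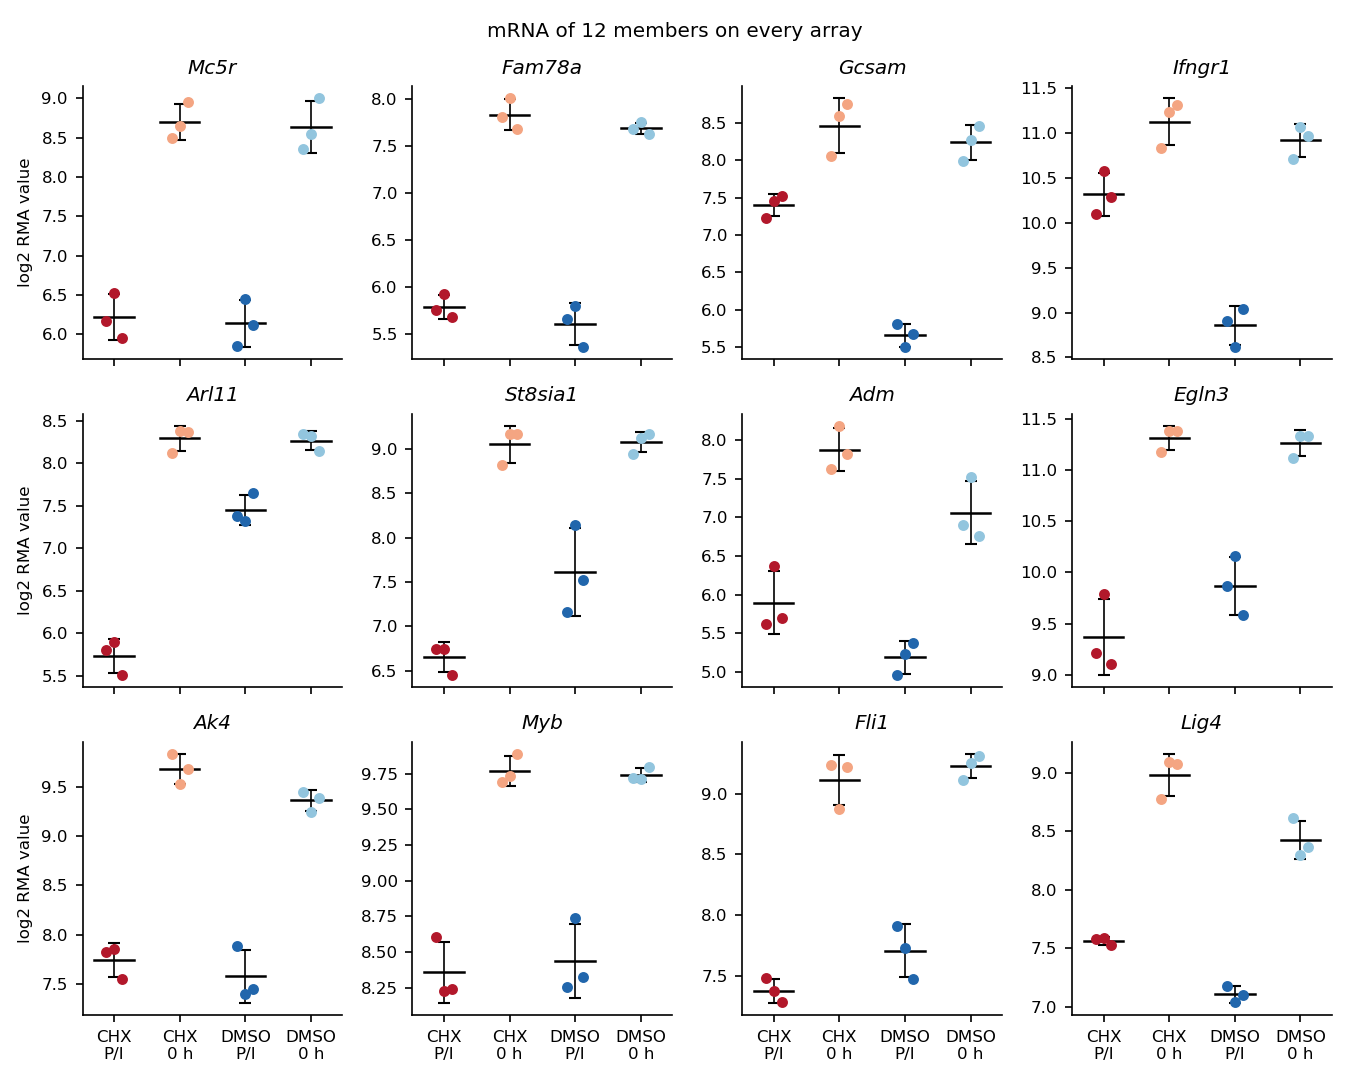
Log2 expression of 12 members on every array, in the order CHX with P/I, CHX unstimulated (0 h), DMSO with P/I and DMSO unstimulated (0 h); points are arrays, horizontal bars are means and whiskers are SDs (n = 3), and the vertical scale differs between panels and does not start at 0. In each of these 12 panels the P/I arrays lie below the unstimulated arrays of the same pretreatment, while Gcsam and Ifngr1 are higher and Arl11 and St8sia1 lower with P/I in CHX than with P/I in DMSO.

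A further 23 genes encode adaptors, kinases, phosphatases and parts of cyclic AMP signalling. Gcsam, an adaptor of germinal centre lymphocytes that limits their motility, had 7.23, 7.45 and 7.52 with P/I in CHX, against 8.05, 8.59 and 8.74 unstimulated. In DMSO it had 5.81, 5.50 and 5.68 with P/I, against 7.99, 8.26 and 8.46 unstimulated. The decrease was 2.09-fold in CHX and 5.95-fold in DMSO. Arl11, an Arf-like small GTPase, had the opposite shape, with 5.80, 5.90 and 5.51 with P/I in CHX, against 8.13, 8.39 and 8.37 unstimulated, and 7.38, 7.32 and 7.65 with P/I in DMSO, against 8.34, 8.32 and 8.14 unstimulated. Its decrease was 5.88-fold in CHX and 1.77-fold in DMSO. For both genes the unstimulated arrays of the 2 pretreatments overlapped, and only the P/I arrays stood apart.

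Several members of this group act on phosphoinositide and cyclic AMP signals. Pik3cg, the catalytic subunit of PI3K gamma, had 6.70, 6.92 and 6.56 with P/I in CHX, against 8.08, 7.93 and 8.12 unstimulated, and 6.82, 6.42 and 5.98 with P/I in DMSO, against 8.10, 7.77 and 7.98 unstimulated. Pik3ip1, which restrains PI3K, had 5.87, 7.08 and 6.47 with P/I in CHX, against 6.55, 7.97 and 8.01 unstimulated, and 5.38, 5.95 and 5.61 with P/I in DMSO, against 6.56, 7.58 and 7.41 unstimulated. Pik3cg was separated in both settings, whereas Pik3ip1 overlapped in CHX, where replicate 1 was low in both states. Sesn1, a p53 target that restrains mTORC1, had effects of -1.27 in CHX and -0.97 in DMSO. On the list of Foxo factors and PI3K brakes, which holds both genes, 2 of 14 were higher and 5 lower with P/I in CHX (10.2% and 11.6% of all tested probe sets), and 1 was higher and 4 lower in DMSO (9.05% and 8.42%). The lower genes include the member Sesn1 in CHX and both members in DMSO. Of 17 p53 targets measured, 2 were higher and 6 lower in CHX, and 4 were higher and 1 lower in DMSO.

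Pde3b, which degrades cyclic AMP, and the adenylyl cyclases Adcy6 and Adcy9, which make it, were members together. Pde3b had effects of -0.90 in CHX and -1.08 in DMSO, Adcy6 had effects of -0.94 and -0.83, and Adcy9 had effects of -0.85 and -0.95. Of 10 adenylyl cyclases measured, Adcy6 and Adcy9 were the 2 that met the rule. Adcy7 had smaller effects of -0.39 in CHX (adjusted p = 0.0512 from limma) and -0.44 in DMSO (adjusted p = 0.0329 from limma). Adcy1 went the other way in CHX, with an effect of 0.80 (adjusted p = 0.0065 from limma), and had -0.28 in DMSO (adjusted p = 0.386 from limma). Axin2, a scaffold of the complex that degrades beta-catenin and itself a Wnt target, had 5.94, 5.86 and 5.96 with P/I in CHX, against 7.31, 7.78 and 7.72 unstimulated, and 5.71, 6.07 and 5.98 with P/I in DMSO, against 6.96, 7.22 and 7.41 unstimulated. The 6 P/I arrays of Axin2 formed a single narrow band. Prkag2, a regulatory subunit of AMP-activated kinase, Map2k6, a kinase of the p38 pathway, the lymphocyte adaptors Sash3, Fyb and Sla2, and the kinase Abl1 had effects between -1.37 and -0.92 in CHX and between -1.65 and -0.82 in DMSO.

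The cytoskeletal group of 11 genes had a median of -1.38 in CHX and -1.16 in DMSO. Rcsd1, which binds the actin capping protein CapZ, had 7.29, 6.84 and 6.96 with P/I in CHX, against 8.73, 8.16 and 8.49 unstimulated, and 6.34, 6.22 and 6.10 with P/I in DMSO, against 8.86, 8.04 and 8.22 unstimulated. Ssh1, the phosphatase that activates cofilin, had effects of -1.53 in both settings, and the kinesin Kif21b had effects of -1.73 in CHX and -1.64 in DMSO. The alpha-tubulin Tuba8 had effects of -1.86 in CHX and -1.16 in DMSO. Sipa1l1, a GTPase-activating protein for Rap, had effects of -0.93 in CHX and -1.01 in DMSO.

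Transcription factors made up 14 genes, with medians of -1.16 in CHX and -0.93 in DMSO. Fli1, an ETS factor of blood cells, had 7.48, 7.37 and 7.28 with P/I in CHX, against 9.24, 8.88 and 9.22 unstimulated, and 7.91, 7.73 and 7.47 with P/I in DMSO, against 9.11, 9.26 and 9.31 unstimulated. Myb, a regulator of blood progenitor growth, had 8.61, 8.23 and 8.24 with P/I in CHX, against 9.69, 9.73 and 9.89 unstimulated, and 8.26, 8.74 and 8.33 with P/I in DMSO, against 9.72, 9.71 and 9.80 unstimulated. Both genes were at least 2.47-fold lower after P/I in each setting. E2f8, an E2F repressor of cell cycle genes, had effects of -1.30 in CHX and -1.60 in DMSO, and Foxm1, an activator of mitotic genes, had effects of -0.84 and -0.82. Snai2, a zinc finger repressor, had effects of -1.53 in CHX and -0.98 in DMSO. Ikzf2, the Ikaros relative Helios, had effects of -0.87 in CHX and -0.91 in DMSO, whereas the effects of Ikzf1 were -0.10 in CHX (adjusted p = 0.786 from limma) and 0.55 in DMSO (adjusted p = 0.0582). Of 17 measured corepressors and repressors, 3 were higher and 4 lower with P/I in CHX, and 4 were higher and 3 lower in DMSO. The ETS factor Elf4 was a member by 1 probe set (-1.28, -0.93), while its other probe set had effects of 0.21 in CHX and -0.08 in DMSO.

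Repair, replication and checkpoint genes numbered 13. Lig4, the ligase of end joining, had 7.58, 7.58 and 7.52 with P/I in CHX, against 8.78, 9.10 and 9.08 unstimulated, and 7.17, 7.03 and 7.10 with P/I in DMSO, against 8.61, 8.30 and 8.36 unstimulated. Msh6, a mismatch repair protein, had 8.73, 9.06 and 8.79 with P/I in CHX, against 9.64, 9.70 and 9.80 unstimulated, and 8.13, 8.13 and 8.05 with P/I in DMSO, against 9.55, 9.46 and 9.37 unstimulated. The P/I arrays of each gene were higher in CHX than in DMSO with no overlap. The damage kinases Atm and Chek2, the mitotic brake Wee1 and thymidine kinase Tk1 had effects between -1.49 and -1.01 in CHX and between -1.35 and -0.81 in DMSO. None of 17 measured mitosis genes was a member: with P/I, 1 was lower in CHX (median -0.12) and 12 were lower in DMSO (median -0.98). None of 17 G1 cyclins, kinases and inhibitors was a member either. With P/I, 11 of them were lower and 1 higher in CHX, and 7 were lower and 1 higher in DMSO. Over all tested probe sets 11.6% were lower and 10.2% higher in CHX, and 8.42% and 9.05% in DMSO.

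Lipid and glycan enzymes gave 16 genes. Chdh, which oxidises choline in mitochondria, had 7.63, 7.32 and 6.85 with P/I in CHX, against 8.87, 8.46 and 8.62 unstimulated, and 6.33, 6.41 and 6.2 with P/I in DMSO, against 8.81, 8.47 and 8.63 unstimulated. The stearoyl-CoA desaturases Scd1 (-1.06 in CHX, -1.01 in DMSO) and Scd2 (-1.19, -0.87), which make monounsaturated fatty acids, were both members, and the elongase Elovl6 had effects of -1.25 and -1.05. Of 14 measured cholesterol and lipid genes, 4 were lower in CHX and 6 in DMSO with none higher, and Scd2 was the 1 member among them. St8sia1, the synthase of ganglioside GD3, had 6.74, 6.75 and 6.45 with P/I in CHX, against 8.81, 9.17 and 9.17 unstimulated, and 7.16, 8.14 and 7.53 with P/I in DMSO, against 8.95, 9.12 and 9.16 unstimulated. Slc35b4, a nucleotide sugar transporter of the Golgi, had 6.72, 6.84 and 6.37 with P/I in CHX, against 9.28, 8.87 and 8.81 unstimulated, and 8.28, 7.98 and 7.99 with P/I in DMSO, against 9.12, 8.87 and 8.97 unstimulated. Both were lower with P/I in CHX than with P/I in DMSO, and alike in unstimulated cells. Chst12, a chondroitin sulfotransferase, had effects of -1.52 in CHX and -1.47 in DMSO. Centrosome genes (7, among them Cep192 and Cep97) had medians of -1.06 in CHX and -1.26 in DMSO, and chromatin genes (8, among them Men1 and Phc3) of -0.98 and -0.96.

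**Figure D3:**
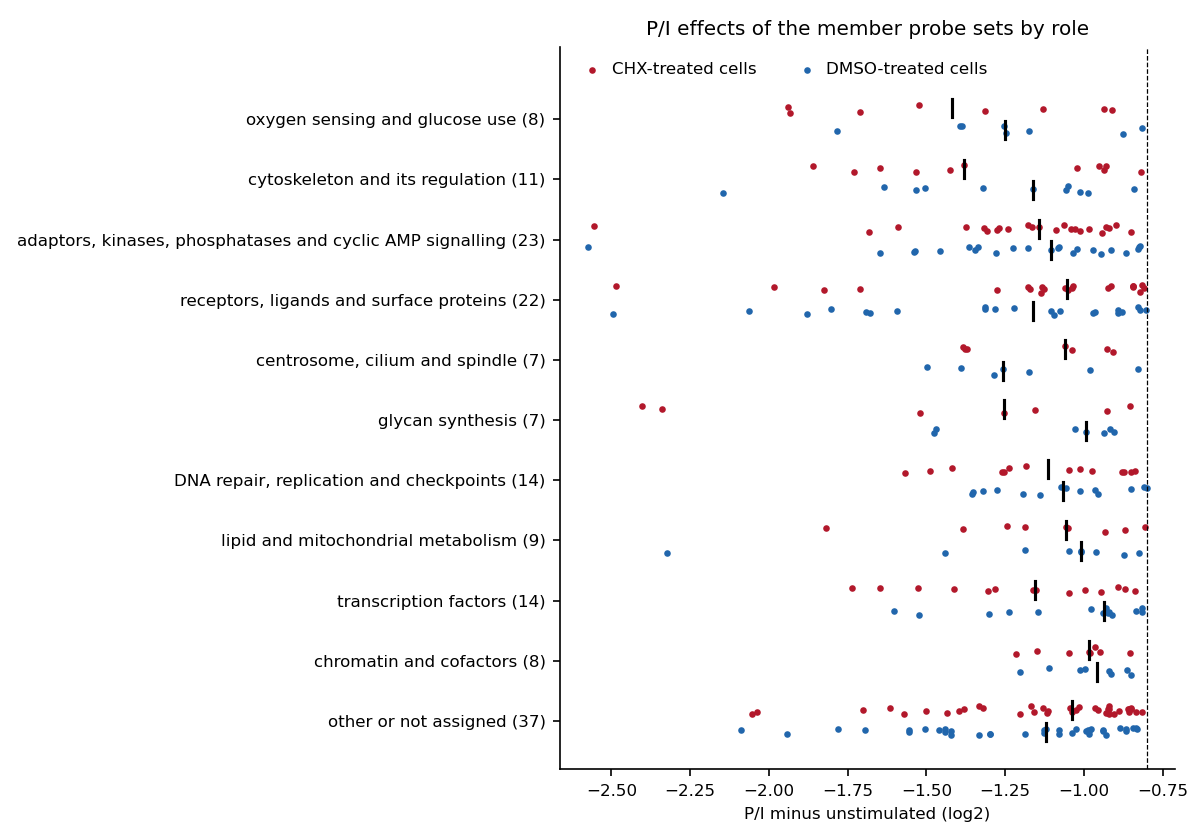
P/I effect (P/I minus unstimulated, log2, horizontal axis) of each member probe set by role group, CHX-treated cells in red above DMSO-treated cells in blue, with black ticks at the group medians, a dashed line at the threshold of -0.8 and the number of probe sets in brackets. The lowest group median in CHX is that of oxygen sensing and glucose use (-1.42), among groups drawn up after the members were known. Single genes such as Arl11, Mc5r and St8sia1 lie far below the median of their groups.

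Of the members without an assigned role, Fam78a had 5.75, 5.92 and 5.68 with P/I in CHX, against 7.81, 8.01 and 7.69 unstimulated, and 5.66, 5.79 and 5.36 with P/I in DMSO, against 7.69, 7.76 and 7.63 unstimulated. Like Mc5r it was lower by nearly the same amount in both settings. Nxpe3 had effects of -2.04 in CHX and -1.70 in DMSO, Mvb12b, a subunit of the ESCRT-I sorting complex, had effects of -1.57 and -1.56, Vstm5 had effects of -1.71 and -1.32, and Ypel2 had effects of -1.5 and -1.46. Nynrin was a member by 3 probe sets, with effects between -1.38 and -0.85 in CHX and between -1.94 and -1.44 in DMSO.

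The 2 P/I effects of a member were within 0.3 of each other for 105 of 160 probe sets, and they differed by 0.8 or more for 12. Both had to be -0.8 or lower, so their closeness follows in part from the choice. The P/I effect in CHX minus that in DMSO had an interquartile range of -0.19 to 0.18. Over all tested probe sets it was -0.14 to 0.20. At an adjusted p under 0.1 from limma, this difference was above 0 for 8 members (5%, against 6.04% of all tested). It was below 0 for 5 (3.12%, against 7.62%). The decrease was deeper in CHX for 82 and deeper in DMSO for 78. Among those deeper in CHX, the largest differences were those of Arl11 (CHX effect minus DMSO effect -1.73), Slc35b4 (-1.44), Sgms1, which makes sphingomyelin (-1.0), and Rtn4rl1, a relative of the Nogo receptor (-0.95). Among those deeper in DMSO, they were those of Gcsam (1.51), Ifngr1 (1.25), Trgv1 (0.96) and Chdh (0.94). For Rtn4rl1 the difference rested on replicate 2 of the DMSO P/I group, which had 8.59, above the other 2 arrays at 6.84 and 7.16.

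Whether CHX itself changed the level of these transcripts was tested with the average of its effects in P/I-stimulated and in unstimulated cells. This average is not one of the P/I effects that chose the members, and with equal sizes and equal spread of the groups it would be statistically independent of both. The spread was not equal, being widest in the DMSO P/I group (median SD 0.26, against 0.17 in unstimulated DMSO-treated cells), where choosing low means favours a higher average. The member counts below are therefore not fully independent of the choice, and the part of the unequal spread in them was not tested. At an adjusted p under 0.1 from limma, 33 member probe sets of 31 genes were higher with CHX, which is 20.6%, against 10.9% of all tested probe sets and 15.4% of those with a mean of log2 5 or more. Another 7 were lower, which is 4.38%, against 7.53% and 10.2%. The members had a median level of log2 7.52, against 5.88 over all tested probe sets. The part of expression level in these shares was not tested. The median CHX effect was 0.14 over the members and -0.02 over all tested probe sets, and 67.5% of members were above 0, against 43% of all. The count of higher members rested on the arrays used: it was 54 without replicate 1 of the DMSO P/I group, 72 without all 4 arrays of replicate 1, 10 without those of replicate 2 and 11 without those of replicate 3. The share of all tested probe sets that was higher was then 13.7%, 17.1%, 4.52% and 3.23% in the same order. Leaving out a single array also makes the group sizes unequal. With the replicate number as a block, 52 members were higher (32.5%, against 14.9% of all tested probe sets) and 11 lower (6.88%, against 11.5%).

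The highest CHX effects were those of Gcsam (0.98, SE 0.12, adjusted p = 0.000282 from limma), Abhd18 (0.95, SE 0.12, adjusted p = 0.00034), Ifngr1 (0.83, SE 0.12, adjusted p = 0.00059), Adm (0.76, SE 0.17, adjusted p = 0.00938), Mr1 (0.73, SE 0.15, adjusted p = 0.00659) and Gpr65 (0.59, SE 0.15, adjusted p = 0.0198). Lig4 (0.51, SE 0.07, adjusted p = 0.000784) and Msh6 (0.50, SE 0.07, adjusted p = 0.000422) were also higher with CHX. Abhd18 had 6.27, 6.61 and 6.57 in CHX and 5.44, 5.03 and 5.17 in DMSO with P/I, and 7.02, 7.42 and 7.79 in CHX and 6.74, 6.88 and 6.69 in DMSO unstimulated. Its CHX arrays were thus above its DMSO arrays in both states. The lowest effects were those of Arl11 (-0.84, SE 0.09, adjusted p = 9.12e-05), Slc35b4 (-0.72, SE 0.11, adjusted p = 0.000865), Tbrg3 (-0.51, SE 0.13, adjusted p = 0.0173), St8sia1 (-0.49, SE 0.14, adjusted p = 0.0397), Smo (-0.36, SE 0.10, adjusted p = 0.026) and Sgms1 (-0.35, SE 0.09, adjusted p = 0.0245), all from limma. Ctdspl, a phosphatase, was the other member that was lower. Of the 40 called probe sets, 38 had the same sign in all 3 replicates, the exceptions being Cep97 and Uevld, whose replicate 1 was at -0.01. Mc5r (0.07, adjusted p = 0.849), Fam78a (0.16, adjusted p = 0.278), Myb (-0.03, adjusted p = 0.924), Fli1 (-0.22, adjusted p = 0.145) and Egln3 (-0.22, adjusted p = 0.329) did not pass the test, with SEs between 0.09 and 0.15.

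**Figure D4:**
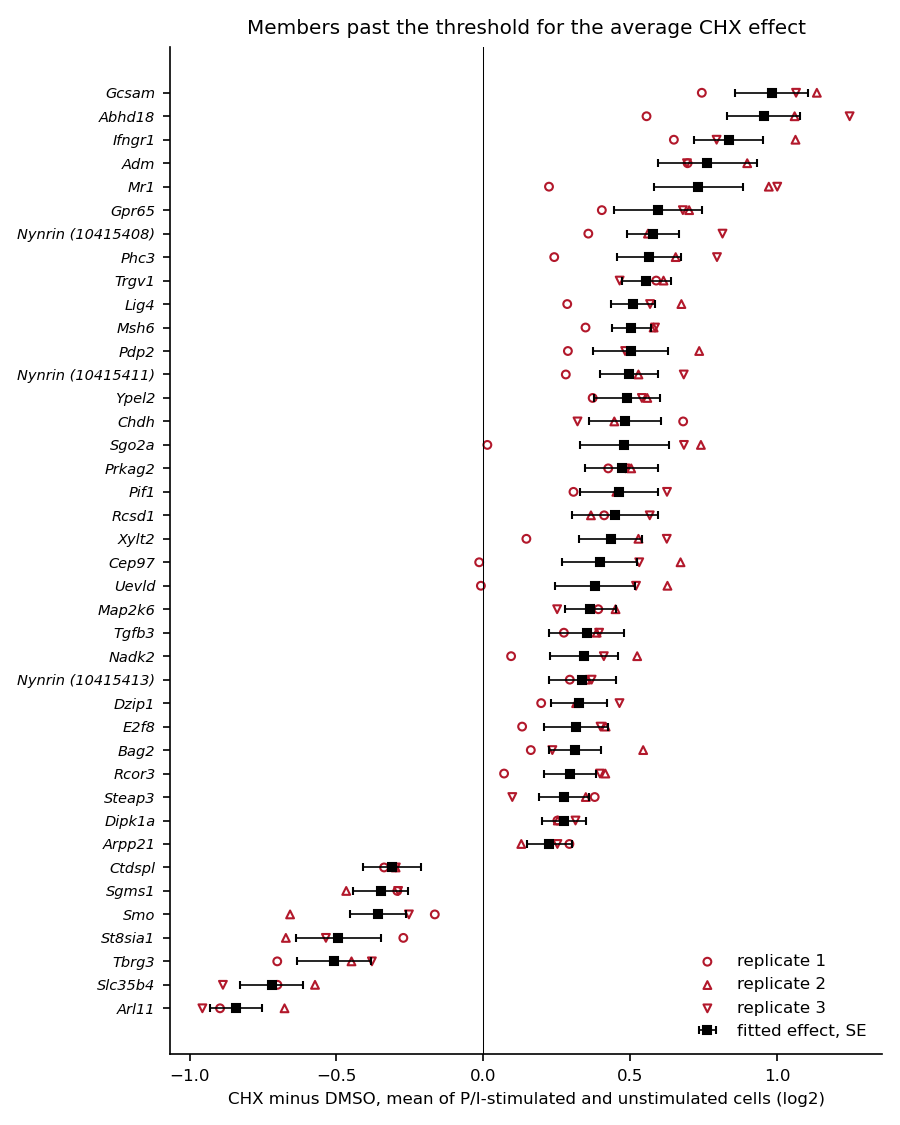
Average CHX effect (CHX minus DMSO, mean of P/I-stimulated and unstimulated cells, log2, horizontal axis) for the 40 member probe sets past the threshold, with black squares and whiskers for the fitted effect and its SE and open symbols for replicates 1, 2 and 3. The 33 higher probe sets reach 0.98 for Gcsam and the 7 lower ones -0.84 for Arl11, and replicate 1 lies lowest for many of the higher ones.

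The CHX effect was not spread evenly over the states. Read literally, P/I-stimulated cells were also 4 h longer in CHX than unstimulated ones. Stimulation and the longer exposure therefore cannot be told apart in this comparison. Among the 33 higher probe sets, 27 had the larger effect in P/I-stimulated cells, which is the same as a shallower decrease with P/I in CHX and is a description, since the 2 P/I effects chose the members. Gcsam had CHX effects of 1.74 with P/I and 0.23 unstimulated, Ifngr1 of 1.46 and 0.21, Trgv1 of 1.03 and 0.08, and Chdh of 0.95 and 0.01. Adm (0.71 with P/I, 0.82 unstimulated), Phc3 of the Polycomb group (0.51, 0.61), Lig4 (0.46, 0.56) and Ypel2 (0.47, 0.51) instead had similar CHX effects in both states. In unstimulated cells alone, 131 of 160 members were above 0 (81.9%, against 44.9% of all tested probe sets), with a median of 0.11. This was not particular to the members. Of 372 probe sets lower by 0.8 or more with P/I in DMSO but not in CHX, 83.6% were above 0 (median 0.12). Of 486 that much lower in CHX but not in DMSO, 74.3% were (median 0.08). No member passed the test in unstimulated cells (0 of 160, with 12 at an unadjusted p under 0.05), where limma called 0.0299% of all tested probe sets higher and 0% lower. Those unstimulated arrays also entered the choice of members.

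**Figure D5:**
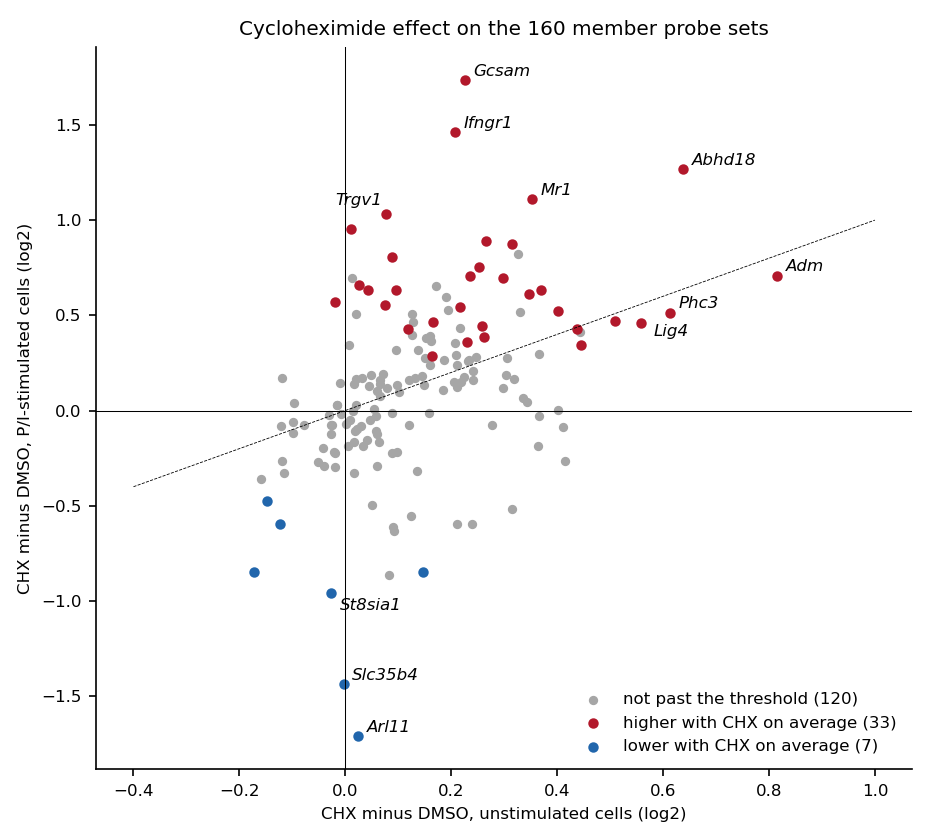
CHX effect (CHX minus DMSO, log2) in P/I-stimulated cells on the vertical axis against unstimulated cells on the horizontal axis for the 160 member probe sets, red and blue where the average effect passed the test and grey where it did not, with a dashed line of equal effects. Gcsam, Ifngr1 and Trgv1 lie high above the line near a small effect in unstimulated cells, Adm, Phc3 and Lig4 lie near or below the line, and Arl11, Slc35b4 and St8sia1 are low with P/I and near 0 unstimulated.

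Gene span and promoter sequence did not enter the rule. The member genes spanned a median of 35.0 kb, against 17.7 kb for all genes with 1 symbol and 23.8 kb for genes with a mean of log2 7 or more. Of the 120 genes with a RefSeq promoter window, 71.7% held a GC box (GGGCGG), 43.3% a CCAAT box (CCAAT), 15% a RUNX motif (TGTGGT), 12.5% an E-box (CACGTG), 9.2% a TATA box (TATAAA), 8.3% an ETS motif (CCGGAAG), 7.5% an AP-1 motif (TGANTCA) and 5.8% a FOXO motif (TGTTTAC), searched on both strands. In genes with a mean of log2 7 or more the shares were 72.7%, 43.2%, 14.3%, 13.0%, 7.7%, 25%, 5.0% and 3.0% in the same order, and over all genes with 1 symbol 53%, 41.7%, 16.4%, 9.5%, 13.6%, 13.6%, 8.1% and 3.5%. The ETS motif was thus the one of these that differed most from other expressed genes, with 10 of 120 member genes holding it. The expressed genes were not matched to the members, whose mean level had a lower quartile of log2 6.97. CCGGAAG holds a CG, and the median number of CG per window was 17 in members, 22 in expressed genes and 15 in all genes. The part of CG number or level in the difference was not tested. No member window held the cyclic AMP response element (TGACGTCA), which 2.7% of all genes and 4.1% of the expressed genes held.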

How the data were processed

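The 12 Affymetrix Mouse Gene 1.0ST arrays of EL-4 cells were grouped by their labels, 3 per group. The authors deposited log2 values made with robust multichip average (RMA) background correction adjusted for probe sequence and quantile normalization, using Partek software (version not given in the sources used here). The table holds 35399 probe sets, of which 21789 pair with 1 symbol, 1621 with several and 11989 with none in the platform annotation. Group means were estimated from the deposited log2 values with limma 3.58.1 (R 4.3.3, lmFit and eBayes, 8 residual and 3.63 prior degrees of freedom) over 23410 probe sets with a symbol, without a filter on low values, and p-values were adjusted by the Benjamini-Hochberg method over all of them at a threshold of 0.1. The fit was tested on simulated data. Quantile normalization fixes each array's overall distribution, so effects are relative to the whole array, and the number of arrays limits the precision. Members and gene lists were chosen with earlier results of these data known. Genes named are the 24 with the lowest mean P/I effect, the 6 highest and 6 lowest called CHX effects, the 4 nearest each side of the threshold, the 4 largest differences between P/I effects in each sign and members on the lists; others were named for their role after their values were seen. Promoter windows are from RefSeq (GRCm38.p6). Alternatives were other normalizations, variance models, filters, thresholds, a replicate block and leaving out arrays.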

Additional observations from a re-analysis of the deposited data

How the results depend on the processing

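The count of members by the rule was 160, with 73 at a threshold of -1.0 and 353 at -0.6, and lay between 115 and 189 when arrays were left out. Members lower with P/I numbered between 127 and 160 in CHX and between 112 and 159 in DMSO when arrays were left out. After median centring of the arrays, 147 probe sets met the rule, all of them among the 160. For the average CHX effect, members higher numbered between 10 and 72 and members lower between 2 and 15 when arrays were left out, and all tested probe sets between 755 and 3996 higher and between 572 and 3075 lower; without replicate 1 of the DMSO P/I group 54 members were higher. Quantile normalization of the probe sets gave 11 lower members. Median centring gave 1141 lower probe sets over all (73.8% of calls higher, against 59% as deposited) and testing all probe sets of the table gave 2884 (47.9% higher). The labels do not say that replicate numbers pair the arrays, but deviations of same-numbered arrays correlated at 0.0644 to 0.7496, above 0.1 for 17 of 18 pairs, and those of other numbers at -0.5813 to 0.3087. An array correlated best with its own number in 33 of 36 array-by-group comparisons, a hint from the data that the numbers mark a shared source. A fit with a replicate block gave 52 higher and 11 lower members, and 2693 lower probe sets over all. None of the 12 genes named for the highest and lowest CHX effects changed sign under the alternatives run. St8sia1 no longer passed without replicate 3 of the CHX P/I group (-0.44, adjusted p = 0.101 from limma). Without replicate 2 neither Mr1, Gpr65, Sgms1, Smo, St8sia1 nor Tbrg3 passed, and without replicate 3 neither Adm, Mr1, Sgms1, Smo, St8sia1 nor Tbrg3 did. The causes were not tested.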

Other observations

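Of 10 member genes, 11 further probe sets with 1 symbol did not meet the rule. Most came close to it, such as the second probe set of Nfia (-0.66 in CHX, -0.81 in DMSO) and that of Qser1 (-1.33, -0.75). The second probe set of Phc3 differed more, with effects of 0.02 in CHX and -0.64 in DMSO, as did that of Elf4. Both probe sets of Sema6b hold the same values on every array, so they count as 1 measurement of that gene.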
